A study of Mus musculus with 2 samples.

Results

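The cytosolic ribosomal protein genes were examined in single muscle stem cells of the mouse before and after activation. Members were all features whose symbol is Rpl or Rps with a number and at most a short ending (Rpl3, Rpl3l, Rps27a, Rps4x) plus Rpsa, Rplp0, Rplp1 and Rplp2, without pseudogene symbols, which gave 83 of 32285 features, 51 of the large and 32 of the small subunit. Satellite cells, the stem cells of muscle, were sorted by fluorescence from tibialis anterior of mice aged 8 weeks. Both groups carried the alleles Pax7 CreERT2/+ and Rosa26 mTmG/+, with which an inducible Cre made in Pax7-expressing cells switches on a membrane reporter. Each library was made from the pooled cells of several mice. The QSC library (quiescent) came from uninjured muscle and the ASC library (activated) from muscle 1.5 days after an injection of CTX, a toxin that destroys muscle fibres. There was 1 library per group, so injury and library cannot be told apart and no difference below has a replicate check or a p-value.

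A ribosome is built from ribosomal RNA and a fixed set of proteins, so cells make these proteins in matched amounts and their mRNAs are among the most abundant of any growing cell. Many of these mRNAs begin with a run of pyrimidines that lets mTOR signalling set how well they are translated. Quiescent satellite cells are small and make little protein, and growth with ribosome production is a known part of their return to the cell cycle. A few members have close relatives with restricted use: Rpl3l replaces Rpl3 in heart and skeletal muscle fibres, and Rpl10l and Rpl39l are known from male germ cells.

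Each library was sequenced from transcript ends with unique molecular identifiers (UMIs), so a value counts captured transcripts and was not divided by gene length. Barcodes with at least 500 genes and at most 10% mitochondrial UMIs were kept, 516 of 766 in QSC (1162091 UMIs, median 2155) and 1468 of 1650 in ASC (8895815 UMIs, median 3502), and 4 barcode sequences occurred in both libraries. A contractile-high class was formed by barcodes in which 10 fibre genes such as Acta1 and Ckm gave 5% of the UMIs or more. It had 104 QSC and 948 ASC barcodes. Of the rest, barcodes with at least 1% of UMIs from a non-muscle marker list were set apart (immune 15 and 87, fibroblast 16 and 2, endothelial 7 and 3, smooth muscle and pericyte 2 and 0), which left 372 QSC and 428 ASC contractile-low muscle barcodes. Pax7, the defining satellite cell gene, stood at 213 CPM (UMIs per 1e+06 UMIs of the class) in contractile-low and 9.32 CPM in contractile-high QSC barcodes, and at 28.8 and 1.97 CPM in ASC. Acta1 was found in 100% of contractile-low, contractile-high and immune barcodes of both libraries, so fibre transcripts reached every kind of barcode. Intervals below are exact 95% intervals for counting error only.

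All 83 members are annotated as protein coding in GENCODE M21 (GRCm38) and lie on 19 chromosomes. Of these, 82 had a UMI in at least 1 kept barcode, Rpl10l had none and Rpl39l had 2, and the other 81 entered the comparisons, which took genes with at least 20 UMIs over both groups. The genes have many copies in the genome. Among the windows of 60 bases in the last 300 bases of their transcripts, 72 members share at least 1 with another annotated gene, but the 5 pseudogene features that were counted are few beside the 300 annotated Rpl or Rps pseudogenes. For 7 members more than 50% of these windows also occur in another counted feature, so their counts are less certain: Rpl36a (97.1%), Rpl35 (95.9%), Rpl10 (88.1%), Rps18 (61.8%), Rps27 (56.3%), Rpl41 (55.9%) and Rpl9 (50.8%). In all, 22 members, Rpl3, Rps2, Rpl5 and Rpl12 among them, overlap a counted gene, 21 of them on the other strand, and how strand was handled is not given in the sources used here.

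The start windows below show both kinds of start for some of the members named in the comparisons. They run from 15 bases before to 15 bases from the start given by RefSeq (GRCm38.p6), 5′ to 3′ on the strand of the gene, with capitals for a C followed by at least 4 pyrimidines that begins within 5 bases of the start. Rps10 and Rpl12 were among the members with high ratios of ASC over QSC, Rps27 had a low one, Rps6 encodes the small subunit protein that growth signalling phosphorylates, and Rpl3l is the fibre paralogue. Rpl7l1 and Rps12 had higher ratios in contractile-low muscle than Rps10 and Rpl12. They have no such tract at their RefSeq start and are not shown.
Rps10 (chr17:27635230-27635259, minus strand): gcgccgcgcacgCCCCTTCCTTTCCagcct
Rpl12 (chr2:32961697-32961726, plus strand): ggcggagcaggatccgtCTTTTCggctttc
Rps27 (chr3:90213634-90213663, minus strand): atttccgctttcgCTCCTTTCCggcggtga
Rps6 (chr4:86857353-86857382, minus strand): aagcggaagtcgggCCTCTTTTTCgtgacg
Rpl3l (chr17:24727811-24727840, plus strand): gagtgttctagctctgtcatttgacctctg
Of 75 starts found for 63 members, 41.3% (31) had such a tract, against 18.3% of all 32851 promoters in the table. The letters CCGGAAG, searched on both strands from 250 bases before to 50 after the start, were in 27 of the 75 member promoters and 8.86% of all, AAGATGGC in 10.7% and 2.75%, GGGCGG in 45 of the 75 and 35.7%, CACGTG in 10.7% and 7.15%, TATAAA in 9.33% and 13.6%, and CCAAT in 29.3% and 37.4%. A start in RefSeq need not be the start used in these cells.

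How much of the transcript pool the members took was measured first in each class. In the QSC library they held 22.1% of the UMIs of contractile-low muscle barcodes (188362 UMIs, interval 22.0 to 22.2) and 8.35% of those of contractile-high barcodes (17915 UMIs, 8.24 to 8.47). In the ASC library they held 31.7% in contractile-low muscle (1685251 UMIs, 31.7 to 31.8) and 13.9% in contractile-high barcodes (424376 UMIs, 13.9 to 13.9). Ribosomal protein transcripts made up a 1.44 times larger share in ASC than in QSC contractile-low muscle, a 1.66 times larger share in contractile-high barcodes, and, within a library, a 2.64 times (QSC) and 2.28 times (ASC) larger share in contractile-low than in contractile-high barcodes. The larger non-muscle classes lay between the contractile-low and contractile-high shares of their library: 18.7% in ASC immune, 13.1% in QSC immune and 13.1% in QSC fibroblast barcodes. The ratio of large to small subunit UMIs stayed between 1.30 and 1.53 in these 7 classes.

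Single barcodes showed how far the classes overlap. QSC contractile-low muscle barcodes ranged from 6.95% to 32.4% (median 22.0%) and QSC contractile-high barcodes from 4.40% to 13.9% (median 7.96%), and 364 of the 372 lay above the highest of the contractile-high barcodes. ASC contractile-low muscle barcodes ranged from 3.497% to 58.4% (median 32.3%), and 210 of 428 lay above the highest QSC contractile-low barcode. The ASC contractile-high barcodes had a long upper tail, from 6.68% to 46.9% (median 13.1%), and 402 of 948 lay above the highest QSC contractile-high barcode. Barcodes that were not kept, most of them for fewer than 500 genes, took 8.25% of UMIs from the members in QSC and 13.4% in ASC, close to the contractile-high share of each library, and their fibre genes took 16.1% and 8.18%.

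**Figure D1:**
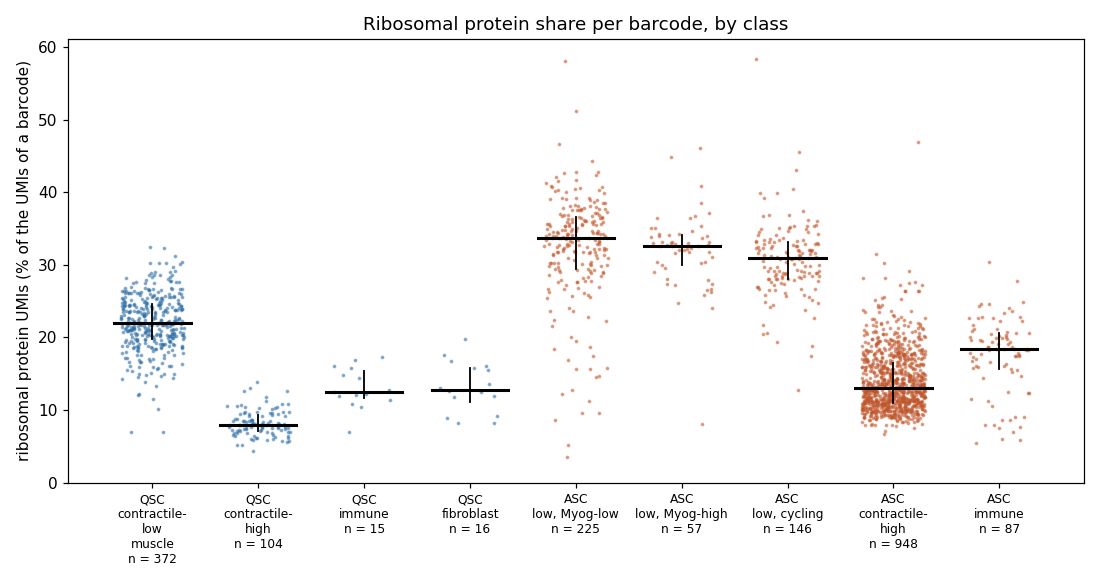
Share of UMIs from ribosomal protein genes (y axis, % of the UMIs of a barcode) for each kept barcode (points) by library and class (x axis), with the median (horizontal bar) and the quartiles (vertical line). "Low" is contractile-low muscle, QSC is blue and ASC orange, QSC contractile-low and contractile-high barcodes sit near 22.0% and 7.96%, ASC barcodes near 30.9% to 33.6% in the 3 contractile-low groups and 13.1% in contractile-high.

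The shares differed little between shallow and deep barcodes of a muscle class. Within QSC contractile-low muscle the median share was 22.3%, 21.8% and 22.0% in the shallowest, middle and deepest of 3 equal groups of barcodes, and within ASC contractile-low muscle it was 32.9%, 32.6% and 31.8%, where the deepest group began at 13333 UMIs. In ASC immune barcodes the shallowest group stood apart with 11.5%, against 18.3% and 19.3%. When each barcode was thinned to 1200 UMIs, a median of 71 members was detected per QSC contractile-low barcode, 77 per ASC contractile-low, 50 per QSC contractile-high and 65 per ASC contractile-high barcode.

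The most abundant members differed between classes. In QSC contractile-low muscle the highest were Rpl13 with 8531 CPM, Rps19, whose gene is mutated in Diamond-Blackfan anaemia, with 7122 CPM, Rpl41, the smallest ribosomal protein, with 6411 CPM, and Rps27 with 6221 CPM. In ASC contractile-low muscle Rpl41 led with 11967 CPM, followed by the stalk base gene Rplp0 with 7206 CPM, Rps2 with 7009 CPM and Rpl13 with 6793 CPM. Over the 81 members with at least 20 UMIs the median was 2439 CPM in QSC and 3795 CPM in ASC contractile-low muscle, and the lowest were Rpl7l1 with 44.5 CPM in QSC and Rpl3l with 32.2 CPM in ASC. The 10 most abundant members held 26.8% of the member UMIs in QSC and 21.8% in ASC contractile-low muscle.

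Which single genes differed between the libraries was compared within contractile-low muscle, the class that holds most Pax7 transcripts. When barcodes were clustered without the members, 367 QSC barcodes fell in 1 contractile-low cluster led by genes such as Chodl and Myf5, while ASC barcodes fell in 3 others of 52, 167 and 197, led by genes such as Myog, Bgn and Pclaf. The median mitochondrial share was 4.89% in QSC and 2.27% in ASC contractile-low muscle, and the part of either difference in the ratios below was not tested. Here 44 of 81 members were at least 1.5-fold higher in ASC and 1 was at least 1.5-fold lower, where of 10037 genes 28.3% were higher and 34.5% lower. The members had a median log2 ratio of 0.66 (1.58-fold, range -0.75 to 1.80) against -0.12 over all genes, so they lay 0.78 above the median gene. Small subunit genes had a median of 0.71 (20 of 32 past 1.5-fold) and large subunit genes 0.55 (24 of 49). Within the pool, 62 of 81 members lay within 1.5-fold of the member median, 11 above and 8 below. The same count around the median of all genes is not given here.

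Among the members with the highest ratios were genes of known separate roles. Rplp1, an acidic protein of the stalk that recruits elongation factors, stood at 1996 CPM (1704 UMIs) in QSC and 6126 CPM (32538 UMIs) in ASC contractile-low muscle, a log2 ratio of 1.62 (1.55 to 1.69). Rps12 stood at 1275 and 3915 CPM, a log2 ratio of 1.62 (1.53 to 1.71), and Rps20 at 1263 and 3591 CPM, a log2 ratio of 1.51 (1.42 to 1.60). Rpl7l1, a relative of Rpl7 known for a part in ribosome assembly, was rare in both, at 44.5 CPM (38 UMIs) and 157 CPM (834 UMIs), and had the highest log2 ratio, 1.80 (1.35 to 2.33). These 4 genes were from 2.84-fold to 3.48-fold higher in ASC.

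At the other end, 6 members were lower in ASC. Rpl3l stood at 53.9 CPM (46 UMIs) in QSC and 32.2 CPM (171 UMIs) in ASC, a log2 ratio of -0.75 (-1.22 to -0.24), the 1 member past 1.5-fold. Rps27, a zinc finger protein of the small subunit, stood at 6221 and 4290 CPM, a log2 ratio of -0.54 (-0.58 to -0.49), and Rpl13 at 8531 and 6793 CPM, a log2 ratio of -0.33 (-0.37 to -0.29). Rps19 stood at 7122 and 6213 CPM, a log2 ratio of -0.20 (-0.24 to -0.16), Rpl35 at -0.08 and Rps28 at -0.07 on the log2 scale. Median-of-ratios scaling put Rps19, Rpl35 and Rps28 above 0 and Rpl13 only just below it, and left Rps27 further below. In the pool of member UMIs, the share of Rps19 was 3.23% in QSC and 1.96% in ASC, that of Rps27 2.82% and 1.35%, that of Rpl13 3.87% and 2.14%, and that of Rplp1 0.905% and 1.93%.

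Other members known for single functions are given by role. In the stalk, Rplp0 had a log2 ratio of 0.96 and Rplp2 of 1.04, and the 3 stalk genes together held 3.54% of the pool in QSC and 5.58% in ASC contractile-low muscle. Rpl5 and Rpl11, which carry a small ribosomal RNA into the large subunit and bind Mdm2 when assembly fails, had ratios of 1.32 and 0.71. Of the small subunit genes, Rps2 had 1.33, Rpsa, also known as a laminin receptor, 1.19, Rps3, also a DNA repair protein, 0.66, Rps27a, made as a fusion with ubiquitin, 0.51, Rps6 0.31 and Rps14 0.09. Rpl41 had 0.90 and Rpl10, one of the last proteins to join the large subunit, 0.72. None of these 12 genes was lower in ASC.

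In contractile-high barcodes the same libraries were compared. Here 55 of 81 members were at least 1.5-fold higher in ASC and 1 was lower, where of 6466 genes 32.9% were higher and 21.9% lower, and the member median was 0.76 against 0.14 over all genes. Rpl3 had the highest ratio: it stood at 107 CPM (23 UMIs) in QSC and 681 CPM (2079 UMIs) in ASC contractile-high barcodes, a log2 ratio of 2.64 (2.08 to 3.33). Rpl5 stood at 168 and 820 CPM, a log2 ratio of 2.27 (1.82 to 2.81), Rps12 at 326 and 1580 CPM, also 2.27 (1.94 to 2.64), and Rpl12 at 322 and 1385 CPM, 2.10 (1.76 to 2.47). The lowest were Rpl3l, at 508 CPM (109 UMIs) and 328 CPM (1000 UMIs), -0.64 (-0.92 to -0.33), Rpl35 at -0.28 (-0.42 to -0.14), Rpl37a at 0.08 and Rpl24 at 0.16.

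Both comparisons use the same 2 libraries, so their values are only set side by side. Rpl3l and Rpl35 were below 0 in both. Rpl3 had 0.12 in contractile-low muscle and 2.64 in contractile-high barcodes, and Rps2 1.33 and 0.44. Rps27, Rpl13, Rps19 and Rps28 were below 0 in contractile-low muscle and above 0 in contractile-high barcodes.

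**Figure D2:**
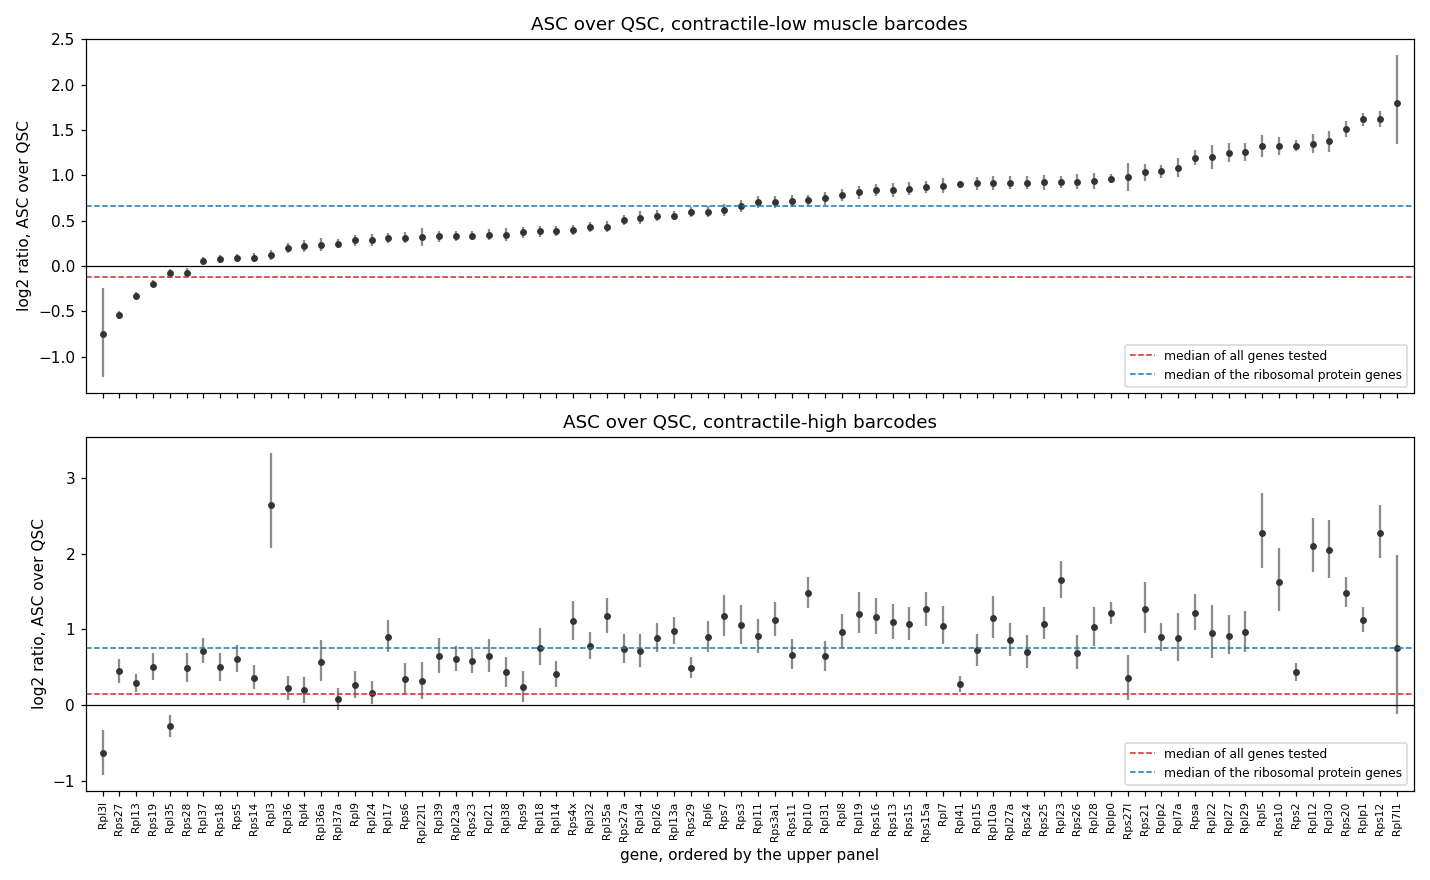
Log2 ratio of ASC over QSC (y axis) with its 95% counting interval for 78 of the 81 members (x axis, in the order of the upper panel) in contractile-low muscle (upper panel) and contractile-high barcodes (lower panel). Dashed lines mark the median of all genes tested (red, -0.12 and 0.14) and of the members (blue, 0.66 and 0.76), and Rpl3 at 2.64 stands out in the lower panel.

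Contractile-low muscle was then set against contractile-high barcodes within each library, which compares barcodes of 1 library with each other. In QSC, 73 of 81 members were at least 1.5-fold higher in contractile-low muscle and 1 was lower, where of 5336 genes 55.6% were higher and 24.7% lower, with a member median of 1.42 against 0.93 over all genes. In ASC, 78 of 81 members were higher and 1 was lower, where of 10301 genes 53.0% were higher and 22.0% lower, with a member median of 1.19 against 0.73. The ASC count depends on the scaling and was 48 with TMM and 45 with median-of-ratios factors, for which the share of all genes is not given here. Most members differed in the direction of most genes, and the classes were cut on fibre transcripts, which take 18.1% and 14.8% of contractile-high UMIs. By CPM the 73 members past 1.5-fold in QSC were among the 78 of 81 past it in ASC, which left little room for another result. The other 2 scalings left fewer than 73 past it in ASC, and the overlap over all genes is not given here.

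Rpl3 and Rpl3l stood at the ends of both comparisons. Rpl3 was 31.9-fold higher in QSC contractile-low muscle than in contractile-high barcodes (log2 ratio 4.99, interval 4.44 to 5.69) and 5.58-fold higher in ASC (2.48, 2.42 to 2.55). Rpl3l had a log2 ratio of -3.23 (-3.77 to -2.73) in QSC and -3.34 (-3.59 to -3.11) in ASC. In both libraries it was the 1 member at least 1.5-fold higher in contractile-high barcodes. Next highest after Rpl3 in QSC were Rps4x (2.49), Rps19 (2.47) and Rps28 (2.19), and in ASC Rps10 (1.82), Rps4x (1.77) and Rps19 (1.77). Lowest after Rpl3l among members with at least 100 UMIs in QSC were Rps2 (-0.09, -0.22 to 0.04) and Rps27l (-0.07, -0.39 to 0.27), and in ASC Rps20 (0.34), Rps27l (0.55) and Rps25 (0.62), and under TMM and median-of-ratios scaling Rps20 and Rps27l lay below 0 in ASC.

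**Figure D3:**
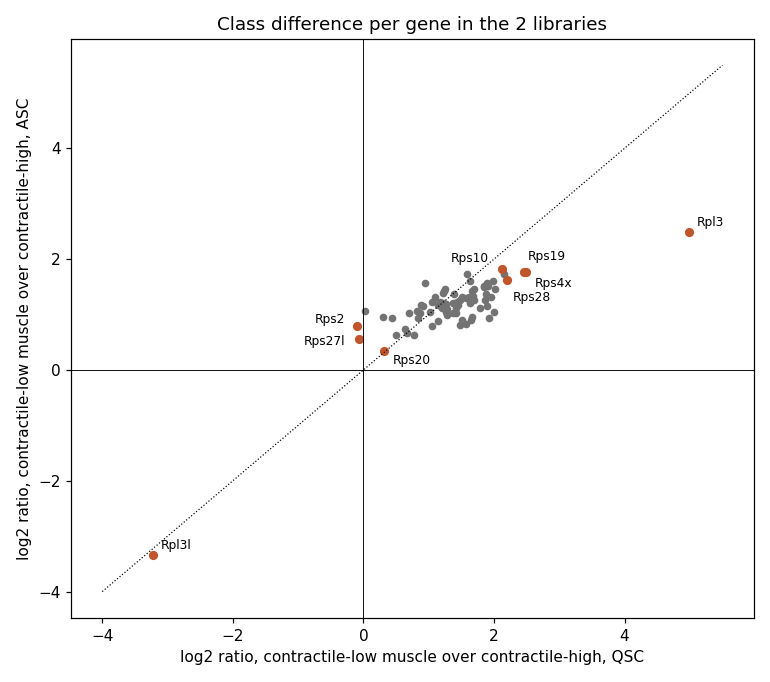
Log2 ratio of contractile-low muscle over contractile-high barcodes in the QSC library (x axis) and the ASC library (y axis) for the 81 members (points), with named members in orange and a dotted line of equal values. Rpl3 lies far to the right (4.99 and 2.48) and Rpl3l far below 0 in both (-3.23 and -3.34).

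The pair of Rpl3 (chromosome 15, 80077791 to 80091868, minus strand, GRCm38) and Rpl3l (chromosome 17, 24727820 to 24736143, plus strand) was followed through all classes. Both encode a large subunit protein near the peptidyl transferase centre. The longest open reading frames of their transcripts, of 1212 and 1224 bases, are identical at 74.9% of 1205 aligned bases and share no window of 60 bases. To show how they differ, the last 90 bases of the last long block aligned without a gap (coding bases 1097 to 1186 of both, from the GENCODE M21 transcripts) are given, with the 21 differing bases in capitals.
Rpl3: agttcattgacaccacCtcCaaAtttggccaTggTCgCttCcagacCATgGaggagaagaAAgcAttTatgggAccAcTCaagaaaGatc
Rpl3l: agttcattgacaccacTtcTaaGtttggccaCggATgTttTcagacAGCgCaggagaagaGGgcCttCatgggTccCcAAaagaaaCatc

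Rpl3l held 82.6% of the UMIs of the pair in QSC contractile-high barcodes (109 of 132, interval 75.01 to 88.6) and 32.5% in ASC contractile-high barcodes (1000 of 3079, 30.8 to 34.2). In contractile-low muscle it held 1.52% in QSC (46 of 3027) and 0.839% in ASC (171 of 20374), and in ASC immune barcodes 2.85% (27 of 949). Between the 2 contractile-high classes Rpl3 was higher in ASC by the ratio above, and the CPM of Rpl3l was lower in ASC. The pair shares in contractile-high barcodes moved with the contractile limit, to 60.3% in QSC and 19.3% in ASC at 2.5%. Single barcodes carried both: of 104 QSC contractile-high barcodes, 13 had UMIs of both genes, 4 of Rpl3 alone, 48 of Rpl3l alone and 39 of neither, and of 948 ASC contractile-high barcodes the numbers were 412, 308, 113 and 115.

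**Figure D4:**
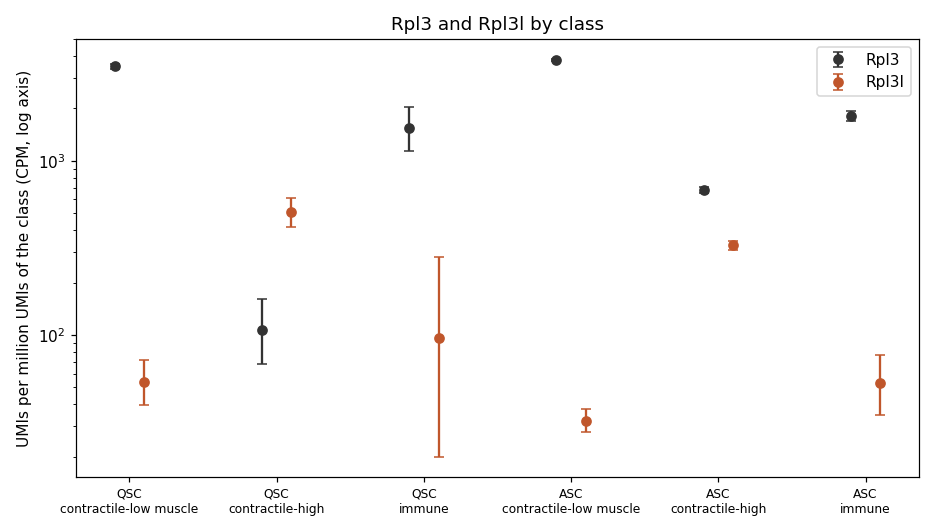
Level of Rpl3 (black) and Rpl3l (orange) in 6 classes (x axis), as CPM on a log axis (y axis), with exact Poisson 95% intervals. Rpl3l lies above Rpl3 in QSC contractile-high barcodes (508 against 107 CPM) and below it in the other 5 classes.

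The low Rpl3l level outside contractile-high barcodes was set against the fibre genes found there. Per 1000 UMIs of the 10 fibre genes there were 2.81 Rpl3l UMIs (2.31 to 3.39) in QSC contractile-high, 3.25 (2.38 to 4.33) in QSC contractile-low muscle, 2.21 (2.08 to 2.35) in ASC contractile-high, 1.69 (1.45 to 1.96) in ASC contractile-low muscle and 2.18 (1.44 to 3.18) in ASC immune barcodes. After thinning to 1200 UMIs, 4.74% of ASC contractile-low muscle barcodes (20 of 422, 27.6% unthinned at a median of 8100.5 UMIs) and 6.02% of ASC immune barcodes (5 of 83, 25.3% unthinned at a median of 6079 UMIs) had an Rpl3l UMI. In QSC the values were 7.05% of contractile-low muscle (26 of 369, 11.6% unthinned) and 9.09% of immune barcodes (1 of 11, 6.67% unthinned). The intervals of the 2 thinned ASC shares overlap (2.92 to 7.22% and 1.98 to 13.5%). The part of free fibre RNA in the Rpl3l level of contractile-low muscle, and in its lower CPM in ASC, was not tested.

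In the other direction, genes with a higher CPM in contractile-low muscle gave a reference for Rpl3 in contractile-high barcodes. Whether their transcripts there came from contractile-low cells was not tested. The CPM of Rpl3 in QSC contractile-high barcodes was 3.07% (1.94 to 4.62) of that in QSC contractile-low muscle, where Pax7 was at 4.37%, Cdh15 at 7.40%, Vim at 5.13%, the elongation factor gene Eef1a1 at 4.37% and the median member at 37.3%. In ASC it was 17.9% (17.1 to 18.7), where Pax7 was at 6.82%, Cdh15 at 8.39%, Vim at 5.18%, Eef1a1 at 8.81%, Myog at 15.7% and the median member at 43.9%. In QSC the interval of Rpl3 overlapped those of Pax7 (0.526 to 16.0), Cdh15 (2.00 to 19.2), Vim (1.39 to 13.3) and Eef1a1 (2.98 to 6.18). In ASC Rpl3 was above Pax7, Cdh15, Vim and Eef1a1, but its interval overlapped that of Myog (14.2 to 17.3). The part of transcripts from contractile-low cells in the Rpl3 level of either contractile-high class was not tested.

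Within the ASC contractile-high class the Rpl3l share varied with the other members. When the 948 barcodes were ordered by their share of all other ribosomal protein UMIs and split into 4 groups of 237, Rpl3l held 43.6%, 38.8%, 30.1% and 21.1% of the pair from the lowest to the highest group, with Rpl3 at 498, 550, 697 and 1007 CPM and Rpl3l at 384, 349, 299 and 269 CPM. The median fibre share was 16.2%, 15.4%, 13.8% and 11.4% in the same groups, and Vim, a gene of activated and non-fibre cells, stood at 95.8, 93.7, 163 and 369 CPM. The part of fibre content and of transcripts from other cells in this order was not tested. When the barcodes were ordered by Mt3 and Trim63, genes of fibre stress and atrophy, Rpl3l held 36.5%, 41.5%, 25.4% and 24.1%, and the other members held 12.99%, 12.4%, 14.7% and 15.7% of UMIs. The first group had no UMIs of these genes and the second began at 0, so barcodes without them were divided between both groups. The median fibre share was 14.5%, 15.9%, 13.7% and 12.9%, and the median depth 2096, 3652, 2620 and 2566 UMIs. Their part was not tested.

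The other paralogue pairs differed less. Rpl22l1, a relative of the RNA-binding protein Rpl22, held 64.7% of its pair in QSC contractile-low muscle (957 of 1480 UMIs, 62.2 to 67.1), 49.8% in ASC contractile-low muscle (7432 of 14922, 49.0 to 50.6), 67.1% and 56.7% in QSC and ASC contractile-high barcodes and 38.5% in ASC immune barcodes (286 of 742, 35.0 to 42.2). Rpl22 itself was 2.30-fold higher in ASC than in QSC contractile-low muscle and Rpl22l1 1.25-fold. Rps27l, a relative of Rps27 induced by Trp53, held 6.68% of its pair in QSC contractile-low muscle (380 of 5690, 6.04 to 7.36), 17.0% in ASC contractile-low muscle (4664 of 27447, 16.6 to 17.4), 22.2% and 21.1% in QSC and ASC contractile-high barcodes and 10.8% in ASC immune barcodes. Rps27l had a log2 ratio of 0.98 in contractile-low muscle, opposite to Rps27 at -0.54. Rpl7l1 held 2.59% and 4.82% of the pair with Rpl7 in QSC and ASC contractile-low muscle, and Rpl7 had a log2 ratio of 0.89.

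Rpl39l had 1 UMI beside 2452 of Rpl39 in QSC and 1 beside 19173 in ASC contractile-low muscle. Rpl10l had 0 UMIs beside 2500 and 25672 of Rpl10, and Rps4l was not among the features. The germ cell relatives were therefore at or under the level of 3 UMIs in every class.

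**Figure D5:**
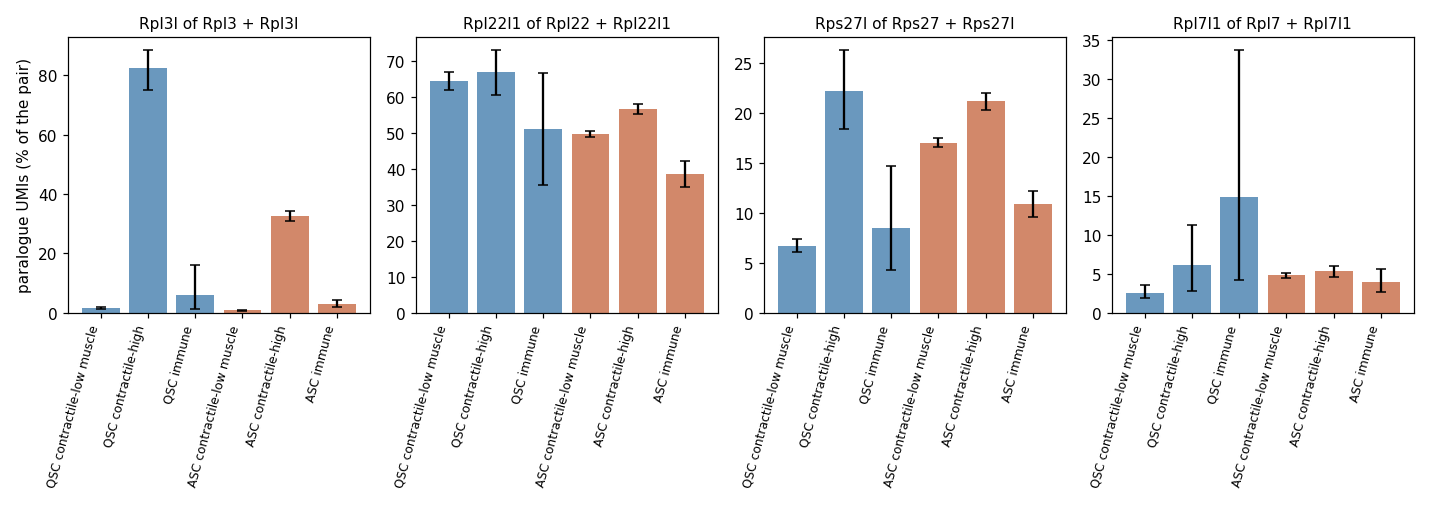
UMIs of the paralogue as a percentage of the UMIs of the pair (y axis, a separate scale in each panel, from 0) in 6 classes (x axis, QSC blue, ASC orange) for 4 pairs, with exact 95% intervals. Rpl3l ranges from 0.839% to 82.6%, Rpl22l1 from 38.5% to 67.1%, and Rps27l from 6.68% to 22.2%.

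Within ASC contractile-low muscle, barcodes were split by cycling genes into 146 cycling barcodes (at least 0.1% of UMIs from 18 genes) and 282 others, and the others by Myog, the differentiation factor, into 57 Myog-high (at least 0.1%) and 225 Myog-low barcodes. The members took 30.8% of UMIs in cycling, 32.4% in Myog-high and 33.2% in Myog-low barcodes. In cycling over non-cycling barcodes 1 of 81 members was at least 1.5-fold higher and 0 lower, where of 9445 genes 23.1% were higher and 24.5% lower, with a member median of -0.09 against 0.01 over all genes. That member was Rpl7l1, at 200 CPM (622 UMIs) in cycling and 96.5 CPM (212 UMIs) in other barcodes, a log2 ratio of 1.05 (0.82 to 1.28). Next were Rps27l (0.41), Rpl29 (0.29) and Rplp1 (0.26), and among the lowest were Rps4x (-0.49), Rpl3l (-0.39) and Rps19 (-0.38). Cycling barcodes were deeper, with a median of 22062 UMIs against 5609, and its part in these differences was not tested.

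In Myog-high over Myog-low barcodes 0 of 81 members were past 1.5-fold in either direction, where of 7155 genes 17.5% were higher and 20.7% lower, and the member median was -0.04 against 0.03. Of members with at least 100 UMIs, among the highest were Rpl3 with 0.22 (3828 CPM in Myog-low, 4457 CPM in Myog-high), Rpl7l1 with 0.16 and Rpl10a with 0.13. The lowest were Rps27 with -0.31 (5171 and 4174 CPM), Rpl36a with -0.28, Rpl10 with -0.22 and Rpl38 with -0.18. Haemoglobin genes, which mark red blood cell RNA, took 0.571% of the UMIs of Myog-low barcodes, and their part was not tested.

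ASC immune barcodes served as a non-muscle reference in the same library. Against contractile-low muscle, 62 of 81 members were at least 1.5-fold lower in immune barcodes and 1 was higher, where of 9930 genes 44.4% were lower and 23.3% higher, with a member median of -0.83 against -0.40. The count of lower members depends on the scaling and was 34 with TMM, for which the share of all genes is not given here. The lowest were Rps2 with -1.54 (2415 against 7009 CPM), Rpl12 with -1.46, Rpl7l1 with -1.44 and Rpl5 with -1.40. The highest were Rpl3l with 0.74 (27 against 171 UMIs), Rps29 with 0.09 (5314 against 5009 CPM), Rps27 with -0.08 and Rps9 with -0.24, but Rps27 lay above 0 under TMM and median-of-ratios scaling, Rps9 above 0 under TMM, and Rps29 below 0 with equal weight for each barcode. Rps2 and Rpl12, lowest in immune barcodes, were among the members with high ratios of ASC over QSC in contractile-low muscle (1.33 and 1.35). ASC contractile-low muscle is part of both comparisons. A high level in that class alone lowers the immune ratio and raises the other, so the values are only set side by side.

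Genes around the ribosome are described by lists made for their role. In contractile-low muscle, ASC over QSC, where 28.3% of all genes were at least 1.5-fold higher and 34.5% lower, 16 of 20 ribosome assembly genes were higher and 0 lower (median log2 ratio 0.99), among them Nhp2, a protein of the particles that modify ribosomal RNA (2.65, 63.3 and 401 CPM), and the nucleolar gene Ncl (1.05). In 18 other mRNAs with a terminal pyrimidine start the count was 10 higher and 0 lower (median 0.81), with Vim, an intermediate filament gene (3.23), and Eef1a1 (1.02). Of the 78 mitochondrial ribosomal protein genes, 65 were higher and 0 lower (median 1.02). In contractile-high barcodes the same 78 genes had 10 higher and 7 lower (median -0.03), against 32.9% and 21.9% of all genes. Within QSC, 60 of the 72 tested were lower and 2 higher in contractile-low muscle than in contractile-high barcodes (median -1.28), against 24.7% and 55.6% of all genes. Within ASC, 20 of 78 were lower and 4 higher (median -0.25), against 22.0% and 53.0% of all genes.

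Of 10 regulators, 6 were higher and 4 lower in ASC contractile-low muscle, against the same 28.3% and 34.5% of all genes. Eif4ebp1, a translation repressor under mTOR, stood at 98.4 CPM in QSC and 310 CPM in ASC (1.65), and Myc, a driver of ribosome production, at 132 CPM (113 UMIs) and 49.9 CPM (265 UMIs), a log2 ratio of -1.41 (-1.73 to -1.08). Of ribosomal protein genes outside the symbol rule, Fau (0.63), Rack1 (1.27) and Rpl36al (1.42) were higher in ASC. In cycling over non-cycling ASC barcodes 17 of the 20 assembly genes and 35 of the 78 mitochondrial genes were at least 1.5-fold higher, against 23.1% of all genes, with medians of 0.78 and 0.56 beside the cytosolic median of -0.09.

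Members with and without a pyrimidine tract at their start had close medians in contractile-low muscle and less close ones in contractile-high barcodes. In contractile-low muscle the 29 tested members with a tract had a median log2 ratio of ASC over QSC of 0.74 (15 past 1.5-fold), the 32 without 0.71 (20 past it), and the 20 for which RefSeq gave no start here had 0.47 (9 past it). In contractile-high barcodes the medians were 0.70, 0.93 and 0.72.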

How the data were processed

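Droplet libraries were made with 3′ single-cell chemistry from sorted cells, and the submitters' processing notes name the mm10 build. Per the file headers the deposited counts, whole numbers of UMIs per gene and barcode, were made with Cell Ranger 6.0.2, while those notes name 7.1.0. They also name Seurat 4.1.0 in R 4.1.2, and the annotation and strand handling are not given in the sources used here.

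UMIs were summed per class. CPM carries an exact Poisson interval, shares a Clopper-Pearson interval and ratios a conditional binomial interval (95%), and 0.5 was added to each count for log2 ratios. Genes with at least 20 UMIs over both groups were compared, and past 1.5-fold counted as higher or lower, with no p-value. Cells are not replicates, doublets and free RNA were not removed, and intervals cover counting error only. Barcodes near a limit were few: 1 of 516 QSC and 36 of 1468 ASC barcodes had 4 to 6% fibre UMIs. The limits of 0.1% for cycling genes and Myog were set from the spread of those genes alone. Clusters made without the members (scanpy 1.11.5, 14 clusters) put 98.84% of barcodes in the same class.

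Members, gene lists and classes were chosen with earlier results of these data known. Named genes were the paralogue pairs, 13 genes with a known role, the 4 highest and 4 lowest log2 ratios per comparison among members with at least 100 UMIs, and the 5 most and least abundant members. Some genes that this rule names are not reported here. Rpl35, Rps28, Rps10 and Rpl12 are also named where their values were seen to stand out. Alternatives changed the scaling, the filters, the mitochondrial and contractile limits, the denominator, the weight of barcodes, the fold, the members and how classes were made. They used edgeR 4.0.16 in R 4.3.3 and Python 3.11.15 (scipy 1.17.1). Sequences are from RefSeq (63 members matched) and GENCODE M21, in which 32235 of 32285 feature identifiers were found. The statistics were tested on simulated data.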

Additional observations from a re-analysis of the deposited data

Results flagged for a closer look

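The difference between ASC and QSC had opposite signs in the 2 muscle classes for 4 members, and this difference between classes was not tested, since each library is 1 sample. Rps27 had a log2 ratio of -0.54 in contractile-low muscle and 0.45 in contractile-high barcodes. Rps19 had -0.2 and 0.5, and its first value is 0.12 with median-of-ratios factors. Rpl13 had -0.33 and 0.29, and its first value lies only just below 0 with median-of-ratios factors. Rps28 had -0.07 and 0.49, and its first value lies above 0 under 3 of the other settings.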

How the results depend on the processing

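No paired analysis was possible because each group had 1 library, and for the same reason no replicate could be left out. The member median lay above that of all genes under every alternative run for ASC over QSC (13 in contractile-low muscle, 12 in contractile-high) and for contractile-low over contractile-high (13 in QSC, 14 in ASC). The 1% mitochondrial limit was not run for the 2 comparisons with QSC contractile-low muscle, of which fewer than 20 barcodes remained. Few UMIs limit Rpl3 in QSC contractile-high barcodes (23) and Rpl7l1 in QSC contractile-low muscle (38). The causes of the changes below were not tested.

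The member share of UMIs without mitochondrial and fibre genes in the total was 23.6% in QSC contractile-low, 10.3% in QSC contractile-high, 33.0% in ASC contractile-low and 16.4% in ASC contractile-high barcodes. With Fau, Rack1 and Rpl36al added, an alternative chosen after seeing the data, it was 22.4%, 8.498%, 32.3% and 14.2%, and without the paralogues 21.9%, 8.18%, 31.5% and 13.7%. The median over barcodes was 7.96% in QSC contractile-high, 32.3% in ASC contractile-low and 13.1% in ASC contractile-high barcodes, and thinning gave 8.15% in QSC contractile-high and 31.8% in ASC contractile-low. A mitochondrial limit of 5% gave 22.3% in QSC and 31.8% in ASC contractile-low, and a limit of 1% gave 30.4% in ASC contractile-low and 13.7% in ASC contractile-high.

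With a contractile limit of 2.5%, Rpl3l held 60.3% of its pair in QSC contractile-high, 19.3% in ASC contractile-high and 0.686% in ASC contractile-low barcodes, Rpl22l1 held 53.9% and Rps27l 19.3% in ASC contractile-high. With a limit of 10%, Rpl3l held 36.5% in ASC contractile-high and 1.11% in ASC contractile-low barcodes.

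Under TMM and median-of-ratios scaling in turn, the member median was 0.76 and 0.98 for ASC over QSC in contractile-low muscle, 0.98 and 1.10 for the classes in QSC, 0.62 and 0.605 for the classes in ASC and -0.52 and -0.68 for immune barcodes. For the classes in ASC it was 0.92 at the 2.5% contractile limit and 1.01 without mitochondrial and fibre genes, and for cycling barcodes it turned from -0.09 to 0.0006 with median-of-ratios factors. The members past the fold numbered 48 and 45 for the classes in ASC and, with TMM, 34 lower in immune barcodes. With a fold of 2 they numbered 17 and 27 for ASC over QSC in contractile-low and contractile-high barcodes and 23 lower in immune barcodes, and without the deepest 10% of barcodes 2 were higher in cycling barcodes. The shares of all genes at these settings are not given here, so these counts cannot be read as an excess of members.

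Directions turned for single members. For ASC over QSC in contractile-low muscle, Rpl35 was 0.017 with TMM and 0.23 with median-of-ratios factors, Rps28 0.0255, 0.24 and, with equal weight for each barcode, 0.0465, and Rps19 0.12 with median-of-ratios factors. In contractile-high barcodes Rpl35 was 0.017 at the 2.5% limit. For the classes under TMM and median-of-ratios scaling, Rps20 in ASC was -0.23 and -0.25, and Rps27l in ASC -0.015 and -0.0297. In immune barcodes Rps27 was 0.23 and 0.066 under these scalings, Rps9 0.065 with TMM, and Rps29 -0.024 with equal weight.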
